A study of Mus musculus with 2 samples.

Results

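Chemokines and their receptors were described across the 2 libraries of a study of mouse peritoneal macrophages. The set holds every row of the deposited table whose symbol is that of a CC, CXC, CX3C or XC ligand or receptor, together with Ccrl2, Pf4 and Ppbp, which gave 55 of 50608 rows. Of these 36 are ligands and 19 are receptors. No row carries the symbol Ccrl1.

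Peritoneal macrophages patrol the fluid around the abdominal organs and clear debris and microbes. Of the 2 libraries, 1 came from cells treated with GW3965, which switches on the liver X receptors (LXRs), nuclear receptors for oxidised cholesterol, and 1 from cells given the solvent DMSO. The labels give both the same strain, C57BL6J, the same pool of male and female animals and the same embryonic stage, E15.5. Neither the dose nor the time of treatment is given in the sources used here, and nothing names an inflammatory stimulus. The name of the column read as GW3965 matches the description of that sample only in its opening letters, so each statement on GW3965 rests on that match. There is 1 library per group and therefore no replicate error and no test of the treatment.

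Chemokines are small secreted proteins that direct the movement of leukocytes along a gradient. They are grouped by the spacing of their first cysteines and act on receptors that couple to inhibitory G proteins. Macrophages are both a source of chemokines and cells that respond to them, and activated LXR is known to dampen the induction of several chemokine genes by bacterial products. The comparison asks which of these genes stood at another level in cells given the agonist.

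Levels are FPKM, which scale the fragments of a gene by its length and by the depth of the library. The steps between low FPKM values gave back the depth, 75287126 reads for GW3965 and 101866070 reads for DMSO. For 9 of the 55 genes these steps allowed a single pair of whole reads. For the others a pair was picked by its implied gene length, which lay within 15% of an annotated length for 52 of the 55. The reads printed below are therefore inferred. Each ratio of FPKM below has an exact conditional 95% interval from those reads, which covers counting error only. Genes with a mean over both libraries of at least 1 FPKM are called measured, and are called higher or lower at 1.5-fold on the scale log2((GW3965 + 1)/(DMSO + 1)), which understates the ratio of low genes. Over the 11889 measured rows the median of this log2 ratio was 0.24, so values are also given after subtracting that median and are then called centred. All 8 macrophage markers with a row were measured, and they summed to 6038 FPKM in GW3965 and 5040 FPKM in DMSO. Lyz2 had 4822 FPKM in GW3965 and 4052 FPKM in DMSO, Csf1r had 42.8 FPKM in GW3965 and 43.3 FPKM in DMSO, and Fcgr1 was the lowest at 2.01 FPKM in GW3965 and 1.08 FPKM in DMSO. Mertk, a receptor for the uptake of dead cells and a known LXR target, was the 1 of the 8 called higher, with 13.9 FPKM in GW3965 and 6.79 FPKM in DMSO. Markers of large resident peritoneal macrophages, 1 of 6 measured, summed to 8.46 FPKM in GW3965 and 4.13 FPKM in DMSO, a ratio of 2.05. Cd5l, a secreted macrophage protein and also a known LXR target, made up most of that sum and was called higher, with 6.28 FPKM in GW3965 and 2.21 FPKM in DMSO. The other 5 were under 1 FPKM in both libraries, with Gata6 at 0.618 FPKM in GW3965 and 0.607 FPKM in DMSO and Selp, the 1 with a lower level in GW3965, at 0.119 FPKM in GW3965 and 0.235 FPKM in DMSO. The part of a different makeup of macrophages in the levels of Ccl9 and Ccl6 was not tested.

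A few genes made up most of the chemokine signal in both libraries. Of the 55 genes, 15 were measured, 10 ligands and 5 receptors. The 4 ligands of highest mean level, Ccl6, Ccl3, Ccl9 and Cxcl16, held 85.7% of the summed FPKM of all ligands in GW3965 and 83.5% in DMSO. Ccl9 is among these 4 through its level in GW3965, so the share in GW3965 is not independent of that choice. In DMSO Ccl9 held 5.43%, less than Ccl4 with 6.60%. The 4 receptors of highest mean level, Cxcr4, Ccrl2, Ccr1 and Cxcr1, held 94.7% of the summed receptor FPKM in GW3965 and 95.1% in DMSO. The ligands summed to 213.9 FPKM in GW3965 against 144.0 FPKM in DMSO, a ratio of 1.49, and the receptors summed to 98.3 FPKM in GW3965 against 91.1 FPKM in DMSO, a ratio of 1.08. These sums rest mostly on the abundant genes named above. The median log2 ratio of the measured ligands was 0.29, or 0.05 after centring. That of the measured receptors was 0.04, or -0.20 after centring.

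**Figure D1:**
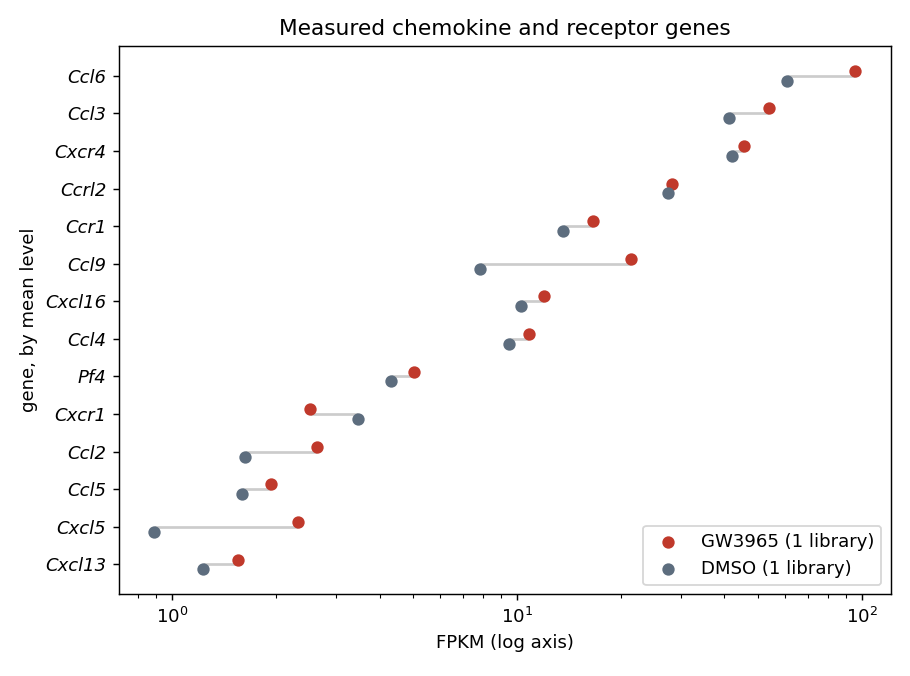
FPKM on a log axis of 14 of the 15 measured chemokine and receptor genes, ordered by mean level, with 1 point for the GW3965 library and 1 for the DMSO library. Ccl9 and Cxcl5 show the widest gaps between the points, and Cxcr1 stood lower in GW3965 (2.51 FPKM) than in DMSO (3.47 FPKM).

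Of the 15 measured genes, 3 were higher in GW3965 by 1.5-fold, namely Ccl9, Cxcl5 and Ccl6, and 0 were lower. Cxcl5, at 0.888 FPKM in DMSO, passed the filter only through its level in GW3965, so its place in this count is not independent of the filter. Among all measured rows 3.46% were called higher and 0.0757% lower. After centring, Ccl9 was still higher and Cxcr1 was lower, 1 of 15 in each direction, beside 1.38% of all rows higher and 0.336% lower. The remaining measured genes were within 1.5-fold after centring. The largest centred log2 ratios among them were 0.57 for Cxcl5, just short of the limit, and 0.40 for Ccl6. The median log2 ratio of the 15 was 0.19, or -0.05 after centring, with 6 genes above the median of all rows and 9 below it.

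**Figure D2:**
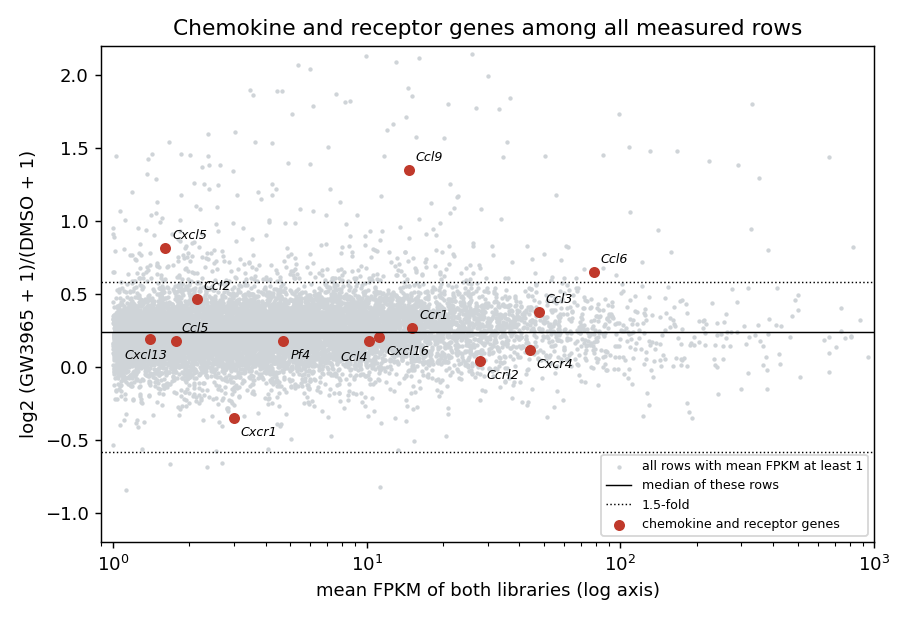
Log2 ratio of (GW3965 + 1) to (DMSO + 1) against mean FPKM for the measured rows (grey) and 14 of the 15 measured chemokine and receptor genes (red), with the median of the rows (solid line, 0.24) and 1.5-fold (dotted lines). Ccl9 lies at 1.35, and 35 of the rows fall outside the axes and are not drawn.

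Among CC ligands, Ccl9 differed most between the libraries on the log2 scale. Ccl9, also called macrophage inflammatory protein 1 gamma, is a ligand of Ccr1. It had 21.5 FPKM (4733 reads) in GW3965 against 7.81 FPKM (2332 reads) in DMSO, a ratio of 2.75 (2.61 to 2.89), a log2 ratio of 1.35 and a centred one of 1.11. By log2 ratio it ranked 68th of the 11889 measured rows. It took 10.03% of the summed ligand FPKM in GW3965 and 5.43% in DMSO.

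Ccl6, a close relative of Ccl9 that also acts on Ccr1, was the ligand of highest level in both libraries. It had 96.0 FPKM (12138 reads) in GW3965 against 60.9 FPKM (10419 reads) in DMSO, a ratio of 1.58 (1.54 to 1.62). Its log2 ratio of 0.65 was past the 1.5-fold limit of 0.58 as deposited, and at 0.40 it was not past it after centring. An antisense transcript annotated over Ccl6, E230016K23Rik, had 0.185 FPKM in GW3965 and 0.0989 FPKM in DMSO, and no source states that reads were counted by strand. For the same reason reads of Cxcl16 cannot be told apart from those of the overlapping Zmynd15 (0.368 FPKM in GW3965 and 0.262 FPKM in DMSO), nor those of Ccl2 from the overlapping Gm17268, which has no row.

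The other measured CC ligands were within 1.5-fold on the scale with 1 FPKM added. Ccl3, known as macrophage inflammatory protein 1 alpha and a ligand of Ccr1, had 53.9 FPKM in GW3965 against 41.3 FPKM in DMSO, a ratio of 1.31 (1.24 to 1.38), and centring left a log2 ratio of 0.13. Ccl4, known as macrophage inflammatory protein 1 beta, had 10.9 FPKM in GW3965 against 9.51 FPKM in DMSO, a ratio of 1.15 (1.02 to 1.29). Ccl5, which attracts T cells and monocytes, had 1.94 FPKM in GW3965 against 1.59 FPKM in DMSO, and its ratio of 1.22 had an interval that included 1 (0.948 to 1.56). The centred log2 ratio was -0.07 for Ccl4 and -0.06 for Ccl5, so both lay slightly under the general shift. Ccl2, the main attractant of monocytes through Ccr2, had 2.64 FPKM (224 reads) in GW3965 against 1.63 FPKM (187 reads) in DMSO, a ratio of 1.62 (1.33 to 1.98). Its log2 ratio was 0.47 with 1 FPKM added, under the limit, and 0.67 with 0.1 FPKM added, past it.

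These ligands also share a place in the genome. On chromosome 11 of GRCm38 (GENCODE M21), Ccl5, Ccl9, Ccl6, Ccl3 and Ccl4 lie between 83525778 and 83664683, and all 5 were measured. The summed level of the cluster was 184.2 FPKM in GW3965 and 121.1 FPKM in DMSO. Ccl9 (83572919 to 83578636, minus strand) and Ccl6 (83587882 to 83593087, minus strand) are adjacent, with 9245 bases between them, and they are the pair called higher. Ccl3 starts 70.7 kb and Ccl4 83.9 kb from the start of Ccl9, and on the same scale Ccl5 starts at -48.1 kb, on the other side. A second cluster of 6 CC ligand genes on the same chromosome, from 82035571 to 82305690, holds Ccl2, Ccl7, Ccl11, Ccl12, Ccl8 and Ccl1. It summed to only 4.28 FPKM in GW3965 and 2.69 FPKM in DMSO, and 1 of its genes, Ccl2, was measured.

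**Figure D3:**
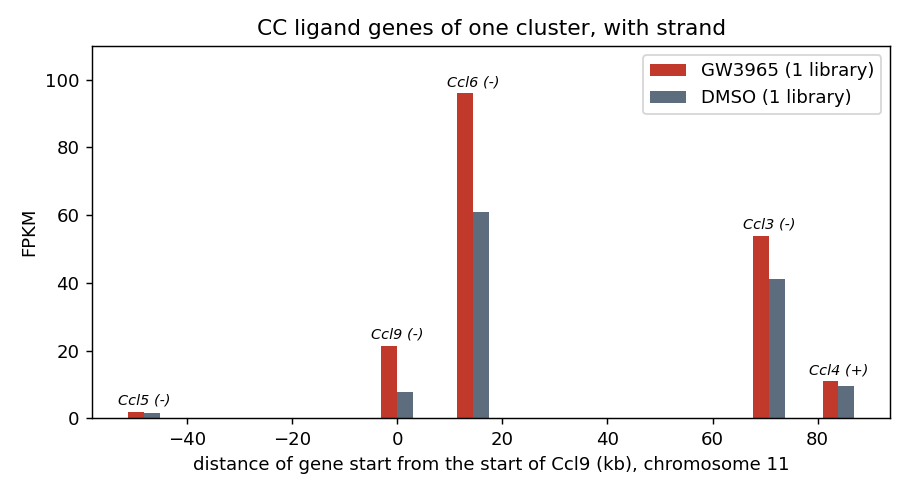
FPKM of the 5 CC ligand genes of the cluster against the distance of each gene's start from that of Ccl9 in kb, with the GW3965 library left of the DMSO library and the strand in brackets. The bars of Ccl9 and Ccl6 differ most between the libraries, and those of Ccl5 and Ccl4 least in FPKM.

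The 250 bases before the starts of Ccl9, Ccl6 and their neighbour Ccl3 are given because the first 2 genes were the higher pair and Ccl3 was within the limit. They come from RefSeq on GRCm38.p6 and are written 5′ to 3′ on the minus strand, the strand of the genes. They span chr11:83578637-83578886 for Ccl9, chr11:83593088-83593337 for Ccl6 and chr11:83649379-83649628 for Ccl3. Capitals mark, on the opposite strand, a match to AGGGCA, then any base, then AGGTNA, where N is any base; this is an arrangement of 2 AGGTCA-like repeats with 1 base between them.
Ccl9: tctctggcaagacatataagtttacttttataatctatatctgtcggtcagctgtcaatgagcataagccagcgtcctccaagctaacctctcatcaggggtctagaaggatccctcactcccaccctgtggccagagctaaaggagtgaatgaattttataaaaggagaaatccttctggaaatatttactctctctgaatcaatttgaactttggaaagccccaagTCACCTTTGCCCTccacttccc
Ccl6: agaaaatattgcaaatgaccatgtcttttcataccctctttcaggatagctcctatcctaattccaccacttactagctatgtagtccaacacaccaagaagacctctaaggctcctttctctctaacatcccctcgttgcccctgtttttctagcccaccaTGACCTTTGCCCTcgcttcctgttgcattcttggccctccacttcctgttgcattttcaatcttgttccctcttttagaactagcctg
Ccl3: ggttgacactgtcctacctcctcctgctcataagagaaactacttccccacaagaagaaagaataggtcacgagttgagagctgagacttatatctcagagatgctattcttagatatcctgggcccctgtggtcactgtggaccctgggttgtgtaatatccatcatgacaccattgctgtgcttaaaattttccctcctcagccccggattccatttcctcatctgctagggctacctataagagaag

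The marked letters lie 22 to 10 bases before the start of Ccl9 and 88 to 76 bases before that of Ccl6, and the window of Ccl3 holds no match. This pattern was chosen after the sequences were seen, in these windows, so its presence in them is a description only. With both strands searched, 16 of 27025 genes in the RefSeq promoter table (0.0592%) hold it in that window, and among the 40 chemokine and receptor genes with an entry, Ccl9 and Ccl6 do. The pattern of AGGTCA, any 4 bases and AGGTCA again, a repeat of the kind that LXR is known to bind, was found in none of the 40 and in 4 of 27025 genes (0.0148%). The pattern of GGGA, any 4 bases and CC, a loose form of the sites bound by NF-kappaB, was found in 17 of the 40 (42.5%) and in 19.7% of all genes. Only 9 of the 15 measured genes had an entry and could be searched. Among these 9 the GGGA pattern was in the windows of Ccr1, Ccrl2, Cxcl13 and Cxcr1, and none of the 3 windows printed here holds it. A match is not evidence of binding.

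Cxcl5 was the CXC ligand with the largest log2 ratio. Cxcl5, also called LIX in the mouse, attracts neutrophils through Cxcr2. It had 2.32 FPKM (365 reads) in GW3965 against 0.888 FPKM (189 reads) in DMSO, a ratio of 2.61 (2.19 to 3.13). The length implied by these reads was 17.5% off any annotated one, so they are the fewest reads the steps allow. On the scale with 1 FPKM added the log2 ratio was 0.81, and at 0.57 it fell just short of the limit after centring. In DMSO it was below 1 FPKM, and it was counted as measured because of its level in GW3965, as its mean was 1.604 FPKM.

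The other measured CXC ligands lay slightly below the general shift. Cxcl16, a membrane-bound chemokine that also takes up oxidised lipoprotein, had 12.0 FPKM in GW3965 against 10.3 FPKM in DMSO, a ratio of 1.17 (1.101 to 1.24). Pf4, a heparin-binding chemokine best known from platelets, had 5.03 FPKM in GW3965 against 4.32 FPKM in DMSO, with a ratio of 1.16 (0.974 to 1.39). Cxcl13, which draws B cells through Cxcr5 and is made by macrophages of body cavities, had 1.56 FPKM in GW3965 against 1.23 FPKM in DMSO, with a ratio of 1.26 (0.980 to 1.62). The intervals of Pf4 and Cxcl13 include 1. The centred log2 ratios of the 3 genes ran from -0.06 to -0.04.

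Cxcl5 is followed on chromosome 5 by Ppbp, Pf4, Cxcl3, Cxcl15, Cxcl1 and Cxcl2, a group of 7 genes between 90759360 and 90905938. Pf4, the other measured gene of this group, was within 1.5-fold. The neutrophil attractants Cxcl1, Cxcl2 and Cxcl3 act on the same receptor as Cxcl5 and were not measured. Cxcl1 had 0.324 FPKM (50 reads) in GW3965 against 0.182 FPKM (38 reads) in DMSO, a ratio of 1.78 (1.14 to 2.79). That interval includes 1.39, the median ratio of rows with means from 0.1 to 1 FPKM. Cxcl2 had 0.119 FPKM (19 reads) in GW3965 against 0.0604 FPKM (13 reads) in DMSO, and its ratio of 1.98 had an interval that included 1 (0.927 to 4.36).

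Among the receptors none was called as deposited. Cxcr4, the receptor of Cxcl12, was the most abundant, with 45.7 FPKM in GW3965 against 42.0 FPKM in DMSO, a ratio of 1.09 (1.05 to 1.12), and a log2 ratio of -0.13 after centring. Ccrl2, which binds the attractant chemerin without signalling, had 28.3 FPKM in GW3965 against 27.4 FPKM in DMSO, with a ratio of 1.03 (0.991 to 1.07), and a log2 ratio of -0.20 after centring. Ccr1, the receptor of Ccl3, Ccl5, Ccl6 and Ccl9, had 16.6 FPKM in GW3965 against 13.6 FPKM in DMSO, a ratio of 1.22 (1.16 to 1.27). Its centred log2 ratio was 0.02, so Ccr1 followed the general shift while the level of its ligand Ccl9 was well above it.

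Cxcr1 was the measured member with the lowest ratio. Cxcr1, which with Cxcr2 forms the pair of receptors for neutrophil-attracting CXC ligands, had 2.51 FPKM (262 reads) in GW3965 against 3.47 FPKM (491 reads) in DMSO, a ratio of 0.722 (0.619 to 0.840). Its log2 ratio of -0.35 was the 36th lowest of the 11889 measured rows and not past the limit as deposited. After centring it was -0.59, just past the limit. Cxcr2, its neighbour on chromosome 1, had 0.104 FPKM (23 reads) in GW3965 against 0.113 FPKM (34 reads) in DMSO, a ratio of 0.915 (0.515 to 1.5998). Neutrophil markers summed to 4.38 FPKM in GW3965 and 3.72 FPKM in DMSO over 6 genes, with S100a8 at 3.60 FPKM in GW3965 and 3.29 FPKM in DMSO the only measured one and Ly6g at 0.178 FPKM in GW3965 and 0.0359 FPKM in DMSO. S100a9, the partner of S100a8, was the 1 of the 6 with a lower level in GW3965, at 0.112 FPKM in GW3965 and 0.145 FPKM in DMSO. The part of neutrophils in the level of Cxcr1 was not tested.

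The levels of ligands and receptors were set side by side, since FPKM is scaled to gene length. Ccr1 and its ligands Ccl3, Ccl6 and Ccl9 were among the genes of highest level in both libraries, the lowest of these values being 7.81 FPKM for Ccl9 in DMSO. Ccl5, another ligand of Ccr1, was less abundant, with 1.94 FPKM in GW3965 and 1.59 FPKM in DMSO. Cxcr4 was the most abundant receptor, whereas its ligand Cxcl12 had 0.288 FPKM in GW3965 and 0.165 FPKM in DMSO. For other pairs the ligand was measured and the receptor was low. Ccr2, the receptor of Ccl2, had 0.142 FPKM (67 reads) in GW3965 and 0.0921 FPKM (59 reads) in DMSO. Cxcr5, the receptor of Cxcl13, had 0.200 FPKM in GW3965 and 0.166 FPKM in DMSO, and Cxcr6, the receptor of Cxcl16, had 1.08 FPKM in GW3965 and 0.772 FPKM in DMSO. Cx3cr1, the fractalkine receptor of monocytes and many tissue macrophages, had 0.0690 FPKM (19 reads) in GW3965 and 0.0617 FPKM (23 reads) in DMSO.

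The other 40 genes, 26 ligands and 14 receptors, were not measured. Of these 21 had a mean of at least 0.1 FPKM. Besides Cxcr6, Cxcl1, Cxcl12, Cxcr5, Ccr2 and Cxcr2, they were Cxcl14, Ccl8, Ccl27a, Ccl25, Ccl7, Ccl28, Ccr7, Cxcr3, Ccl17, Ccr9, Cxcl17, Ccr10, Ccl26, Ccl22 and Ccl11. Ccl27a has near-identical copies in the mouse genome, so its 0.694 FPKM in GW3965 and 0.643 FPKM in DMSO are uncertain. Cxcl14 was the highest of these 15, with 0.864 FPKM in GW3965 and 0.758 FPKM in DMSO. Ccl7 and Ccl8, relatives of Ccl2, had levels of 0.552 FPKM for Ccl7 and 0.781 FPKM for Ccl8 in GW3965, against 0.352 FPKM for Ccl7 and 0.626 FPKM for Ccl8 in DMSO, and both ratios had intervals that included 1. Ccl17, a ligand of Ccr4, had the lowest ratio, with 0.129 FPKM (4 reads) in GW3965 against 0.310 FPKM (13 reads) in DMSO, and an interval from 0.0989 to 1.35. Cxcr3, the receptor of the interferon-induced ligands, had 0.194 FPKM (22 reads) in GW3965 against 0.287 FPKM (44 reads) in DMSO, a ratio of 0.677 (0.386 to 1.15). Ccl11, an attractant of eosinophils, had 0.178 FPKM (13 reads) in GW3965 against 0.0404 FPKM (4 reads) in DMSO, a ratio of 4.40 (1.36 to 18.5). The interval of Ccl11 includes 1.39, the median ratio of rows with means from 0.1 to 1 FPKM.

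The remaining 19 genes, with means under 0.1 FPKM, were Ppbp, Cxcl2, Xcr1, Ccr6, Cxcl10, Cx3cr1, Xcl1, Cx3cl1, Ccr4, Ccl1, Ccl24, Ccr8, Cxcl15, Cxcl11, Ccl12, Ccl20, Cxcl3, Ccr3 and Cxcl9. They had 2 to 34 reads each in GW3965 and 1 to 23 reads each in DMSO, and 18 of the 19 had a ratio above 1. Cxcl10 was the exception, with 0.0498 FPKM (9 reads) in GW3965 against 0.0900 FPKM (22 reads) in DMSO and an interval from 0.224 to 1.25. The interferon-induced ligands Cxcl9, Cxcl10 and Cxcl11 were thus all under 0.1 FPKM in both libraries.

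The ratios of the genes at each level were set beside those of all rows of that level, leaving out rows at 0 in DMSO. Over the 21945 rows with means from 0.01 to 0.1 FPKM the median ratio was 1.93. It was 2.44 over the 19 chemokine and receptor genes of that level, 12 of which had a ratio above the median of the rows. From 0.1 to 1 FPKM the median ratio was 1.39 over 14503 rows and 1.37 over the 21 genes. From 1 to 5 FPKM it was 1.27 over 6836 rows and 1.22 over 7 genes, and from 5 FPKM up it was 1.22 over 5053 rows and 1.19 over 8 genes.

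**Figure D4:**
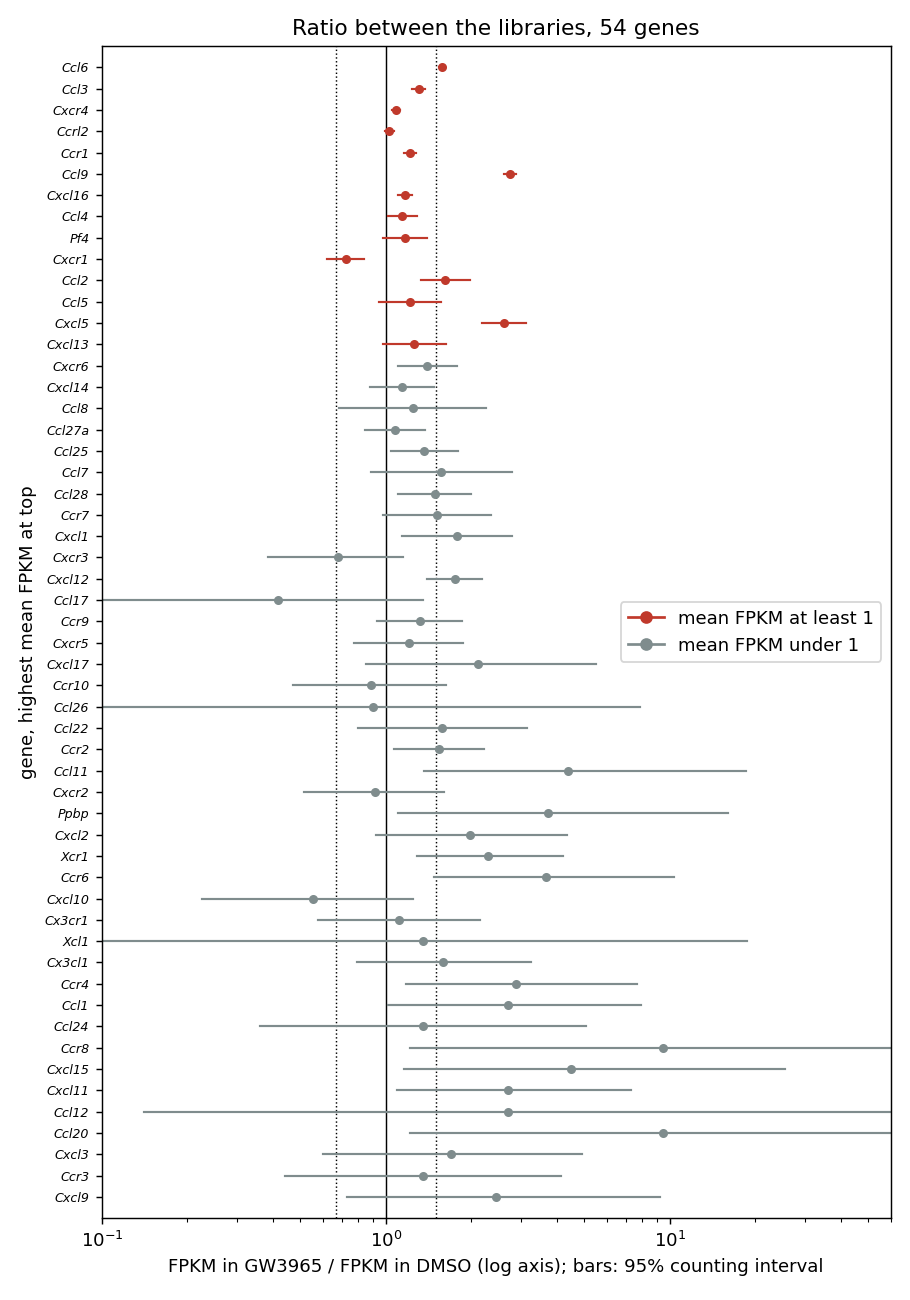
Ratio of FPKM in GW3965 to FPKM in DMSO on a log axis for 54 of the 55 genes, highest mean level at the top, with 95% counting intervals cut at the edges of the plot, a line at 1 and dotted lines at 1.5-fold. Among the measured genes (red) the whole intervals of Ccl9, Cxcl5 and Ccl6 lie above 1.5, and the intervals widen towards the genes with few reads at the bottom.

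Genes that act downstream of chemokine receptors showed little beyond the general shift. Of 60 listed genes, 55 were measured, 2 were higher by 1.5-fold and 0 were lower, beside 3.46% and 0.0757% of all measured rows. Their log2 ratios had a median of 0.23, and of -0.01 once centred. Pik3cd, a catalytic subunit of phosphoinositide 3-kinase in leukocytes, had 8.79 FPKM in GW3965 against 4.47 FPKM in DMSO, a ratio of 1.97 (1.88 to 2.06), and a log2 ratio of 0.60 after centring. Fgr, a Src family kinase, had 6.49 FPKM in GW3965 against 3.25 FPKM in DMSO, a ratio of 1.998 (1.86 to 2.15), and at a centred log2 ratio of 0.57 it was not past the limit. Rgs2 and Rgs1, which shorten G protein signals, had log2 ratios of 0.53 for Rgs2 and 0.49 for Rgs1. Src had the lowest value of the list, with 3.22 FPKM in GW3965 against 4.25 FPKM in DMSO and a log2 ratio of -0.32. Gnai2, the inhibitory G protein subunit of highest level, had 87.2 FPKM in GW3965 and 83.0 FPKM in DMSO.

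Other cells of the cavity can also make chemokines, and their markers were compared beside these results. In bulk samples a change in the share of a cell type and a change in its RNA per cell cannot be told apart. Mesothelial markers, 2 of 7 measured, summed to 7.19 FPKM in GW3965 and 4.23 FPKM in DMSO, a ratio of 1.70, and all 7 had a higher level in GW3965. Among all 50608 rows, 42419 had a ratio above 1. The median ratio was 1.39 over rows with means from 0.1 to 1 FPKM, where the unmeasured mesothelial markers lie. Fibroblast markers, 5 of 6 measured, summed to 25.7 FPKM in GW3965 and 17.5 FPKM in DMSO, a ratio of 1.47. Dcn had the highest ratio of the 6, with 11.6 FPKM in GW3965 and 6.91 FPKM in DMSO. Col1a1 had the lowest, 1.09, with 1.75 FPKM in GW3965 and 1.61 FPKM in DMSO. The median ratio was 1.27 over rows with means from 1 to 5 FPKM and 1.22 over rows from 5 FPKM up. Cxcl5, Ccl2 and Cxcl12, which mesothelial cells and fibroblasts can make, were also at a higher level in GW3965. The part of these cells in those levels was not tested. B cell markers, 2 of 6 measured, summed to 4.19 FPKM in GW3965 and 2.80 FPKM in DMSO. Platelet markers, 0 of 5 measured, summed to 1.27 FPKM in GW3965 and 0.921 FPKM in DMSO. The part of platelets in the level of Pf4 was not tested. Of the remaining lists, mast cell markers summed to 1.91 FPKM in GW3965 and 0.775 FPKM in DMSO, eosinophil markers to 3.06 FPKM in GW3965 and 2.18 FPKM in DMSO, and T or NK cell markers to 0.928 FPKM in GW3965 and 0.524 FPKM in DMSO. Dendritic cell markers summed to 0.891 FPKM in GW3965 and 0.642 FPKM in DMSO, endothelial markers to 2.06 FPKM in GW3965 and 1.95 FPKM in DMSO, and those of small macrophages or monocytes to 2.31 FPKM in GW3965 and 1.92 FPKM in DMSO. No marker of these lists was at 0 in either library.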

How the data were processed

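The authors deposited 1 table of FPKM values for RNA sequencing with 1 column per library, and no counts. The submitters' processing notes name STAR 2.3.0, HTSeq 0.5.4p3 and the builds GRCm38 and mm10, with no role. Per the labels' protocols, a Qiagen kit was used to extract total RNA and a TruSeq RNA kit to prepare libraries. No source used here gives the annotation, the strand setting or the handling of reads with several matches.

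Of 29845 rows above 0 in both libraries and below 0.3 FPKM in DMSO, 97.0% stood in a ratio of small whole numbers (denominators up to 60, within the rounding of the sixth decimal) once a factor of 1.35 between depths was allowed, and 4.46% when that factor was moved by 1%. GENCODE M21 exon lengths reduced by 99 bases gave the depth. Whole reads per gene were those whose implied length was a whole number nearest an annotated length. Where no annotated length was near, the fewest reads possible were taken.

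Members and lists were chosen with earlier results of these data known. Every measured member is named except 1 receptor, which is counted but not reported here, members at a mean of 0.1 FPKM or more are named, and from the other lists those past 1.5-fold and up to 6 with the largest absolute log2 ratio. Gnai2, Sdc1, Dpp4, Rarres2, Cmklr1, Ackr1 and Ackr4 were named beyond this rule for their roles, after their values were seen. Src was also beyond it, as the lowest value of the signalling list. Alternatives were pseudocounts of 0.1 and 0.5, 3 other filters, centring, equal upper quartiles, equal sums, a 2-fold limit, intervals wholly past 1.5-fold, and leaving out NONCODE, Gm and Rik rows. Scripts used scipy 1.17.1, pandas 2.3.3 and numpy 2.4.6 under Python 3.11.15, with matplotlib 3.10.9 for plots. Proteins were not analysed here.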

Additional observations from a re-analysis of the deposited data

How the results depend on the processing

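No paired analysis was possible because neither treatment has a second library. Against 3 chemokine and receptor genes higher in GW3965, 1 was higher after centring (Ccl9), 1 at 2-fold (Ccl9) and 5 with equal sums (Ccl2, Ccl3, Ccl6, Ccl9 and Cxcl5), and against 0 lower, 1 was lower after centring (Cxcr1). Their median log2 ratio of 0.19 was 0.079 with no filter on low values, -0.049 centred, -0.016 with equal upper quartiles and 0.43 with equal sums. Against 2 signalling genes higher, the count was 1 at a mean of at least 5 FPKM, 1 centred, 0 with equal upper quartiles, 15 with equal sums and 0 at 2-fold, and the median of 0.23 was -0.0098 centred, -0.042 with equal upper quartiles and 0.49 with equal sums. The cause of these differences between settings was not tested, beyond what each scaling or limit does by construction. Ccl9 was higher on each of the 6 scales tried, with log2 ratios from 1.06 to 1.61. Cxcl5 was higher on 5 of the 6 and Ccl6 on 4. Cxcr1 was below 0 on each, from -0.59 to -0.15, and past the limit on 1. The sign of 9 of the 15 measured genes depended on the scaling, among them Ccl4, Ccl5, Ccr1, Ccrl2, Cxcl13, Cxcl16, Cxcr4 and Pf4. Depth limits the genes of few reads, since a single read over 1 kb stands for 0.0147 FPKM in GW3965 and for 0.0109 FPKM in DMSO.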

Other observations

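Atypical receptors and proteins that bind or modify chemokines were examined as a further list of 24 names, Ccrl2 among them, 19 of which had a row. Of these 9 were measured and none was higher or lower by 1.5-fold, beside 3.46% and 0.0757% of all measured rows. Their log2 ratios had a median of 0.20, and of -0.05 once centred. The receptors that take up chemokines without G protein signalling were near the floor, with Ackr1 at 0.0191 FPKM in GW3965 and 0.00706 FPKM in DMSO, and Ackr4, the highest of the 4, at 0.1503 FPKM in GW3965 and 0.131 FPKM in DMSO. Sdc1, a heparan sulfate proteoglycan of the kind that holds chemokines at the cell surface, had 89.2 FPKM in GW3965 and 84.6 FPKM in DMSO. Cklf, a chemokine-like factor, differed most among the measured ones, by 0.37 on the log2 scale, with 4.40 FPKM in GW3965 and 3.19 FPKM in DMSO. Cmklr1, the signalling receptor for chemerin, had 4.73 FPKM in GW3965 and 3.77 FPKM in DMSO, and Rarres2, which encodes chemerin, had 0.280 FPKM in GW3965 and 0.310 FPKM in DMSO. Dpp4, a protease that trims the ends of several chemokines, was not measured, with 0.283 FPKM in GW3965 and 0.0962 FPKM in DMSO.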
